A study of Mus musculus with 21 samples.

Results

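The genes described here are 10 genes of the integrated stress response and of the synthesis of serine and asparagine that it drives: Atf3, Atf4, Atf5, Ddit3, Trib3, Chac1, Nupr1, Asns, Psat1 and Sesn2. They were taken by symbol, with earlier results of these data known. Of the 10, 9 are among the 25127 genes with a value in each library. The tenth, Atf4, was not analysed here library by library and is given from the authors' deposited tables only. The study measured RNA of whole spinal cord in C57BL/6 mice in which Tardbp, the gene of the RNA-binding protein TDP-43, was floxed and deleted with Cnp-Cre, a recombinase active in the oligodendrocyte lineage. All 6 groups carried at least 1 floxed Tardbp allele. Controls were Tardbp-fl/fl without Cre, heterozygotes (cHET) were Cnp-Cre with Tardbp-fl/+, and knockouts (cKO) were Cnp-Cre with Tardbp-fl/fl. The younger groups (P21), with 2 females and 2 males of each genotype by their labels, were 21 days old. The older groups (P60) were of 3 mice each. The P60 controls were all labelled female and 74 days old, the P60 cHET mice male and 60 to 65 days, and the P60 cKO mice male and 61 to 64 days, so that at P60 the comparison with control cannot be told apart from sex and age. Age also cannot be told apart from the library kit, which differed between the 2 ages. The mix of sexes differed too, as the P21 groups held both sexes and the P60 cKO and cHET groups only males.

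Cells that lack amino acids, accumulate misfolded protein, sense viral RNA or run short of haem phosphorylate the translation factor eIF2, which slows protein synthesis but raises translation of the ATF4 messenger. ATF4 protein then binds C/EBP-ATF response elements, often as a partner of C/EBP proteins, and switches on genes for amino acid transport and synthesis, for other transcription factors and for feedback inhibitors. ATF4 is regulated to a large part in translation, so the level of its messenger is not a measure of its protein. In white matter disease this response has been studied above all in oligodendrocytes, whose myelin proteins load the secretory pathway, but ATF3 and its relatives are also induced in activated microglia and in injured neurons. Serine is made from a glycolytic intermediate by PHGDH, PSAT1 and PSPH in turn.

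The values are normalized scaled reads per base of a gene, here called levels. How the scaling acts across genes is not given in the sources used here. An order of genes by level is therefore an order of these values and may not be one of transcript abundance. In units of 1000000, a library summed to between 26.9 and 29.2 at P21 and between 12.5 and 13.8 at P60. Tardbp itself fell in cKO against cHET by 0.29 on the log2 scale at P21 (SE 0.06, adjusted p = 0.0025) and by 0.20 at P60 (SE 0.06, adjusted p = 0.040), in whole tissue of which the recombined cells are a part. For cKO against control limma gave -0.37 at P21 (adjusted p = 3.3e-04) and -0.14 at P60 (adjusted p = 0.14), where the groups overlapped. For cHET against control it gave -0.08 at P21 (adjusted p = 0.81) and 0.06 at P60 (adjusted p = 0.99). Summed markers of neurons, astrocytes and mature oligodendrocytes were each at 67941 or more in every library, and those of peripheral leukocytes at 431 or less.

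Promoters of the members were searched for the element that ATF4 and C/EBP proteins bind. The RefSeq promoter table of GRCm38.p6 held a window from 250 bases before to 50 bases after the start of each of the 10 genes. The motif TGATGNAA, on either strand, lay in a window of 5 of the 10 members, against 4.51% of the 27025 genes in the table. The members were listed as genes of the response that ATF4 drives. A share above that of all genes therefore goes with the choice of list and is no result of these mice. The cAMP response element TGACGTCA, which ATF and CREB factors bind, lay in 0 of 10 members, against 2.03% of genes, and this says only that those exact letters are not there. The 5 matches are shown with the bases around them, each on the strand on which the motif reads TGATGNAA, with the motif in capitals.
Atf3: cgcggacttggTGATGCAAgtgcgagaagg
Nupr1: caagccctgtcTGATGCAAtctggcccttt
Chac1: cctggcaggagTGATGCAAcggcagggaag
Asns: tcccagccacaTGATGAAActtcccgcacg
Trib3: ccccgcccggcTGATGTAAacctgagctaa
In Atf3 (chr1:191183436-191183443) and in Nupr1 (chr7:126625573-126625580) the motif had the same letters, orientation and distance, bases 110 to 103 before the start on the strand opposite to the gene. Chac1 carried the same letters farther away, bases 193 to 186 before the start (chr2:119351049-119351056, opposite strand). In Asns it lay 23 to 16 bases before the RefSeq start (chr6:7693225-7693232, the gene's own strand). In Trib3 it lay at bases 15 to 22 after the RefSeq start (chr2:152344039-152344046, opposite strand), in the part transcribed by RefSeq. By GENCODE M21 the Asns site lies inside the gene, which begins at 7693254, and the Trib3 site lies before the start, at 152344032. Of these 5 genes, Atf3 and Nupr1 passed the test of cKO against cHET and the other 3 did not.

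The 250 bases before the start of Atf3 and of Nupr1 are given in full because these were the 2 members that rose. Both are printed along the gene's own strand, the minus strand of GRCm38.p6, where the motif reads as its reverse complement, in capitals.
Atf3 (chr1:191183334-191183583): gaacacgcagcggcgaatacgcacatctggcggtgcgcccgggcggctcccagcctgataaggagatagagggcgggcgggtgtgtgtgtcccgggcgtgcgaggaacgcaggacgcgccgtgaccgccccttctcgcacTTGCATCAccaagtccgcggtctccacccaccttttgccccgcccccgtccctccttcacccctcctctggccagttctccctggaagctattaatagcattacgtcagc
Nupr1 (chr7:126625471-126625720): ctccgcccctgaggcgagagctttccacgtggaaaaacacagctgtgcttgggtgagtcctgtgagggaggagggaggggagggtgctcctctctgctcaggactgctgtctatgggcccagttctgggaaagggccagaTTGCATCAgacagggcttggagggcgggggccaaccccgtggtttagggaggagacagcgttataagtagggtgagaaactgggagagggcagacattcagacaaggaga
Both starts are those of RefSeq and lie inside the longer span that GENCODE M21 gives each gene. A match of letters describes the sequence and does not show that a factor binds there.

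In the comparison of knockout with heterozygote at P21, in which both groups carried Cnp-Cre, 2 of the 9 members tested rose (Atf3 and Nupr1), 1 fell (Psat1) and 6 did not pass limma's test at an adjusted p under 0.05. Over all 17989 genes tested, 22.6% were called, 12.6% higher and 9.97% lower. At P60 the same 3 members were called in the same directions, of 8 tested, where 25.0% of 16833 genes were called (13.4% higher and 11.5% lower). The shares of members called, 3 of 9 and 3 of 8, are near that of genes in general, and the members' median log2 difference was -0.04 at P21 and 0.15 at P60 beside -0.0076 and 0.0033 over all genes. The authors' deposited test called the same 3 members at both ages, where it called 23.8% of all genes at P21 and 25.7% at P60.

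**Figure D1:**
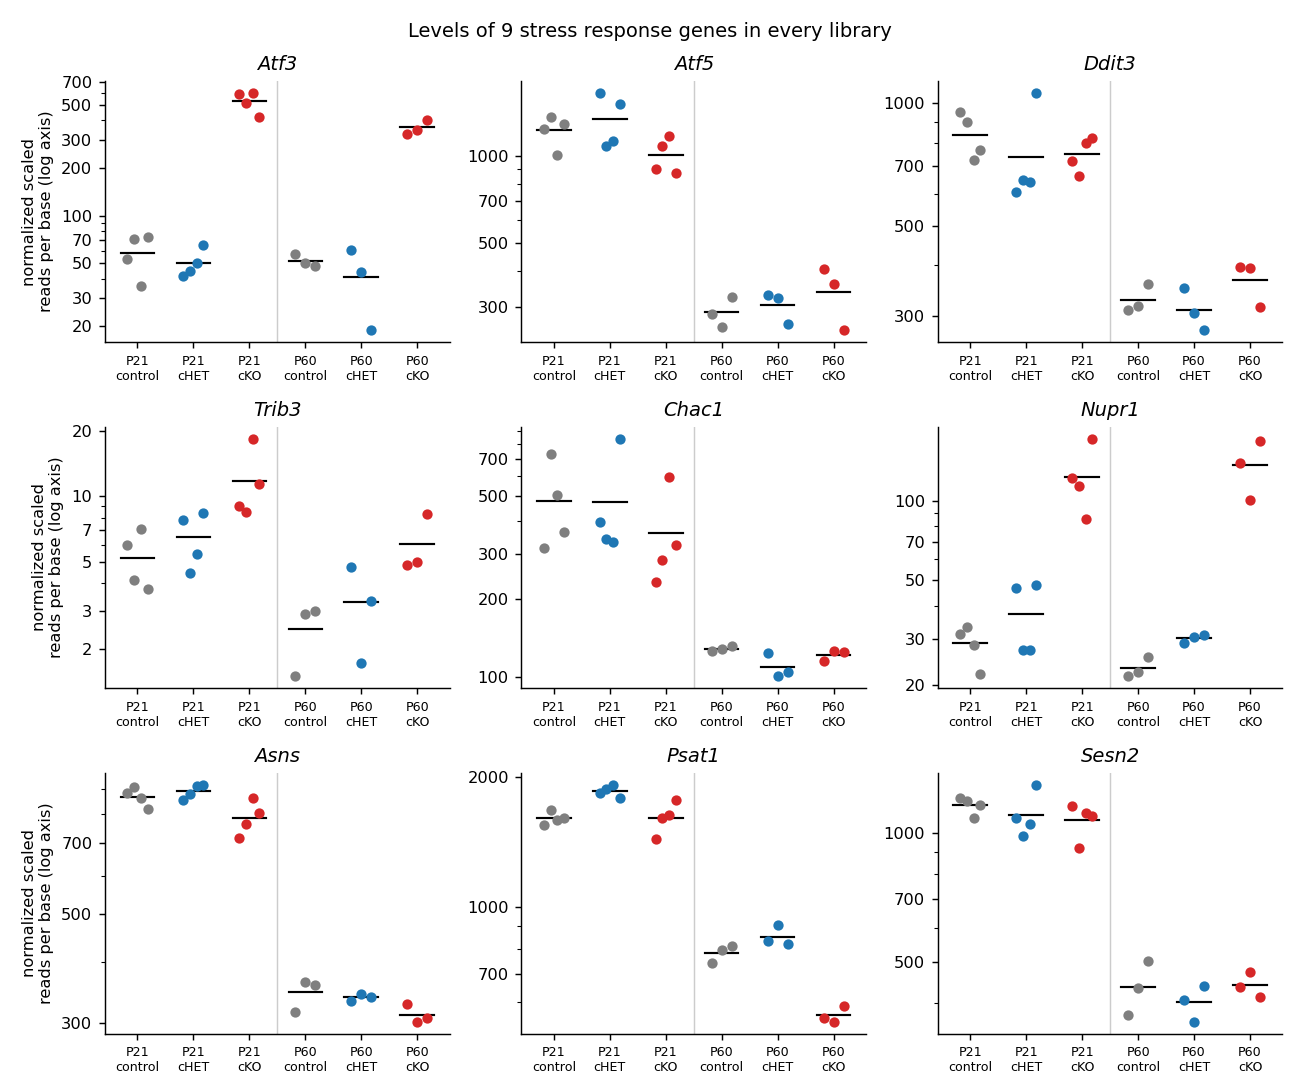
Levels of 9 member genes in every library, as normalized scaled reads per base on log axes with a scale of its own in each panel; each point is 1 mouse and each bar the group mean, at P21 (left of the line) and P60 (right). The cKO mice stand above all others of their age for Atf3, Nupr1 and Trib3 and, at P60, below them for Psat1.

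**Figure D2:**
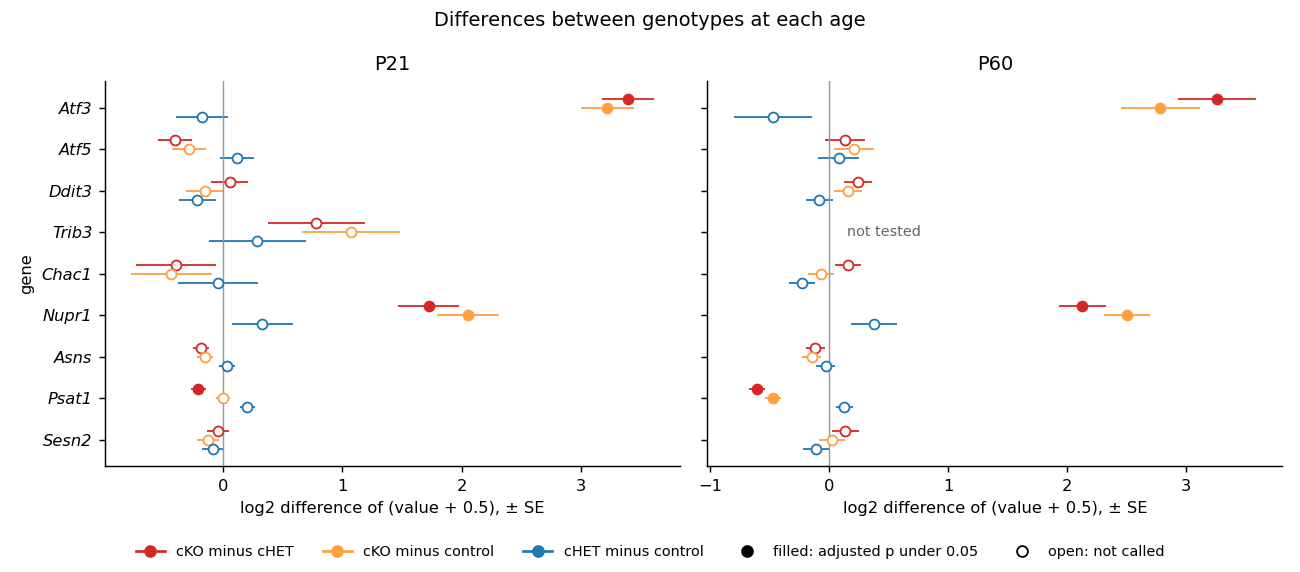
Log2 differences of the value plus 0.5 with their SE, by gene, for cKO minus cHET, cKO minus control and cHET minus control at P21 and P60, from limma; filled points have an adjusted p under 0.05. Atf3 lies at 2.78 to 3.39 in all 4 comparisons of cKO, and no point of cHET against control is filled; Trib3 did not reach the level required for a test at P60.

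Of the per-library members, Psat1 had the highest group mean in all 6 groups and Trib3 the lowest. Mean levels in P21 controls ran from 1603 for Psat1 through 1225 for Atf5, 1161 for Sesn2, 870 for Asns, 836 for Ddit3 and 478 for Chac1 to 58.2 for Atf3, 28.7 for Nupr1 and 5.25 for Trib3. Atf5 and Sesn2 overlapped in their ranges over mice, as did Asns with Ddit3 and Ddit3 with Chac1. Atf3 held the seventh place in control and cHET mice of both ages, the sixth in P21 cKO mice at a mean of 530 and the fourth in P60 cKO mice at 361, where its range overlapped those of Ddit3 and Atf5.

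Atf4 encodes the central transcription factor of the response (ENSMUSG00000042406; GRCm38 chr15:80255184-80257541). In the authors' deposited tables its mean on the natural log scale corresponded to a level of 4162 at P21 and 1477 at P60, above the same mean of every other member. Its differences in those tables were small. For cKO against cHET the authors' deposited log2 difference was -0.12 (SE 0.11, q = 0.49) at P21 and 0.06 (SE 0.08, q = 0.67) at P60. Against control it was -0.19 (q = 0.20) and 0.02 (q = 0.91) in the authors' deposited tables, so none of the 4 passed. These tables give no value per mouse, so the spread behind Atf4 cannot be shown as for the others.

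Atf3, a stress-induced member of the ATF and CREB family that mostly represses transcription (ENSMUSG00000026628; chr1:191170296-191218039, minus strand), changed most. At P21 its level was 53.1, 70.9, 35.8 and 73.1 in controls, 41.7, 44.5, 50.1 and 65.7 in cHET mice, and 587, 516, 597 and 422 in cKO mice. All 4 knockouts lay above all 8 other mice, the lowest of them far above the highest of the rest. The difference from cHET was 3.39 on the log2 scale (SE 0.22, adjusted p = 5.0e-08), or 10.5-fold, and the difference from control was 3.22 (SE 0.22, adjusted p = 8.6e-08). At P60 the levels were 57.4, 50.2 and 48.1 in controls, 60.7, 44.1 and 18.9 in cHET mice, and 329, 349 and 405 in cKO mice, again without overlap. There the difference from cHET was 3.26 (SE 0.33, adjusted p = 3.0e-05), or 9.59-fold, and that from control 2.78 (SE 0.33, adjusted p = 9.6e-05). The third P60 cHET mouse, at 18.9, was the lowest of the 9 P60 libraries. The P60 difference of cKO from cHET was still called in each of the 6 fits that left out 1 P60 mouse (2.79 to 3.61). In RNA of a whole tissue a change in the number of cells of a type and a change in the RNA of each cell cannot be told apart, here or for the genes that follow.

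Atf5, another bZIP factor translated under stress, and Ddit3, which encodes the pro-apoptotic factor CHOP, passed in no comparison with all mice included. The mean level of Atf5 in cKO, cHET and control mice was 1008, 1344 and 1225 at P21 and 340, 305 and 289 at P60. The P21 cKO mice had 905, 1081, 1173 and 871 and the cHET mice 1651, 1080, 1129 and 1514, so the 2 groups overlapped. The difference of -0.40 (SE 0.14, adjusted p = 0.057) passed when a single mouse was left out, either cHET 2 (-0.50, adjusted p = 0.026), cHET 3 (-0.48, adjusted p = 0.042) or cKO 3 (-0.48, adjusted p = 0.036). At P60 its difference had the other sign, 0.13 (SE 0.17, adjusted p = 0.63), and against control it was 0.21 (adjusted p = 0.41), which passed without cKO 3 (0.42, adjusted p = 0.047). Exons of Atf5 share 82 bases with Nup62 and Il4i1 on the opposite strand, and whether the counting used strand is not given in the sources used here, so its level is uncertain to that extent.

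Ddit3 was at 720, 661, 800 and 822 in P21 cKO mice, at 606, 646, 639 and 1060 in cHET mice and at 950, 901, 727 and 767 in controls. The fourth cHET mouse stood above all other P21 mice, and the knockouts lay inside the span of the rest. The difference of cKO from cHET was 0.06 (SE 0.15, adjusted p = 0.83), and 0.25 (adjusted p = 0.11) without that mouse. At P60 the levels were 396, 394 and 316 in cKO mice and 351, 306 and 277 in cHET mice, with a difference of 0.24 (SE 0.12, adjusted p = 0.16). CHOP is a hallmark of prolonged endoplasmic reticulum stress, and at neither age did its messenger show a change beyond the spread between mice. Its exons share 68 bases with Mars and 13 with Gm4189 on the opposite strand and 105 with a second gene model of the same name, so this level too is uncertain.

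Nupr1 (ENSMUSG00000030717; chr7:126623249-126630861, minus strand) encodes a small stress-inducible chromatin protein. At P21 its level was 31.2, 33.3, 28.4 and 22.1 in controls, 46.8, 27.2, 27.2 and 47.7 in cHET mice and 122, 114, 85.2 and 172 in cKO mice. Every knockout was above every other mouse of that age, while cHET and control mice overlapped. The log2 difference of cKO from cHET was 1.72 (SE 0.26, adjusted p = 2.0e-04), or 3.30-fold, and from control 2.05 (SE 0.26, adjusted p = 3.7e-05). At P60 the levels were 21.6, 22.3 and 25.5 in controls, 28.9, 30.5 and 30.9 in cHET mice and 140, 101 and 168 in cKO mice. The 3 genotypes did not overlap at P60, and the log2 differences of cKO were 2.13 from cHET (SE 0.20, adjusted p = 1.5e-05), or 4.37-fold, and 2.50 from control (SE 0.20, adjusted p = 4.1e-06). Atf3 and Nupr1 had opposite extremes among the P21 knockouts: mouse 4 was lowest for Atf3 and highest for Nupr1, and mouse 3 the reverse.

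Trib3, a pseudokinase that is induced by CHOP and ATF4 and restrains them, was barely expressed. Its level at P21 was 5.99, 4.15, 7.09 and 3.77 in controls, 7.82, 4.46, 5.42 and 8.44 in cHET mice and 9.02, 8.46, 18.4 and 11.4 in cKO mice. The knockouts were above all other mice, with the lowest of them next to the highest cHET mouse. The difference of cKO from cHET, 0.78 (SE 0.41, adjusted p = 0.20), and from control, 1.07 (SE 0.41, adjusted p = 0.066), did not pass. At P60 it was too low to be tested, at 4.83, 5.0 and 8.30 in cKO mice, 4.74, 1.73 and 3.33 in cHET mice and 1.50, 2.89 and 2.99 in controls. The cKO mice again lay above all others, while cHET and control mice overlapped, and the authors' deposited table gave a log2 difference of 0.84 from cHET with q = 0.31. Groups without overlap were common at these group sizes: cKO and cHET did not overlap for 22.6% of all genes at P21 and 39.5% at P60.

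Psat1 (ENSMUSG00000024640; chr19:15904678-15947337, minus strand), the aminotransferase of serine synthesis and the per-library member with the highest mean levels, fell. At P60 its level was 553, 541 and 588 in cKO mice, 835, 905 and 819 in cHET mice and 740, 793 and 809 in controls. All knockouts were below all 6 other mice. The log2 difference was -0.60 from cHET (SE 0.07, adjusted p = 6.8e-05), or 0.658-fold, and -0.48 from control (SE 0.07, adjusted p = 3.7e-04). At P21 it was 1433, 1607, 1630 and 1768 in cKO mice, 1831, 1871, 1920 and 1782 in cHET mice and 1549, 1672, 1589 and 1603 in controls. There the knockouts lay below every heterozygote but on both sides of the controls.

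The P21 call for Psat1 was narrow and depended on the group it was set against. From cHET the difference was -0.20 (SE 0.06, adjusted p = 0.029), whereas from control it was 0.00 (SE 0.06, adjusted p = 0.99). The heterozygotes themselves were above all controls by 0.21 (SE 0.06), at an unadjusted p of 0.0051 in limma and an adjusted p of 0.49. The call against cHET was lost when cHET 1 (adjusted p = 0.055), cHET 2 (0.067), cHET 3 (0.083), cKO 1 (0.078) or cKO 2 (0.062) was left out, with log2 differences between -0.25 and -0.15 over all 8 such fits. The 2 P60 calls for Psat1 held in each fit that left out 1 mouse.

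The other enzymes of the same route, named after their values were seen, did not move with Psat1 at P21. Phgdh, which catalyses the first step, had 1914 in cKO, 1643 in cHET and 1282 in control mice at P21 as group means, a difference of 0.21 from cHET (SE 0.12, adjusted p = 0.26) and of 0.58 from control (adjusted p = 0.0026). At P60 it was lower in cKO mice at 424, 438 and 459 than in cHET mice at 492, 602 and 515. That difference of -0.28 (SE 0.09, adjusted p = 0.039) did not pass on omission of cHET 2 (adjusted p = 0.14), cHET 3 (0.051), cKO 1 (0.12), cKO 2 (0.097) or else cKO 3 (0.051). Psph, the phosphatase of the last step, was at 331 and 314 in P21 cKO and cHET mice and 82.5 and 79.5 at P60, with differences of 0.08 (adjusted p = 0.70) and 0.05 (adjusted p = 0.85).

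Asns, asparagine synthetase and the classic amino acid response gene, was at 714, 765, 866 and 804 in P21 cKO mice and at 855, 880, 916 and 920 in cHET mice. The difference was -0.18 (SE 0.07, adjusted p = 0.064), and it passed without cKO 3 (-0.23, adjusted p = 0.025). From control it was -0.15 (adjusted p = 0.13), which also passed without cKO 3 (-0.19, adjusted p = 0.049) and under quantile normalization (-0.18, adjusted p = 0.046). At P60 the 3 knockouts, at 328, 302 and 307, were below the 3 heterozygotes, at 333, 344 and 339, by 0.12 on the log2 scale (SE 0.08, adjusted p = 0.32). Neither Psat1 nor Asns was called higher in any of the 6 comparisons of genotypes.

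Chac1, which degrades glutathione and is induced by ATF4, had the highest SD relative to its mean of the 9 members in each P21 group, 38.8% to 50.6%. Its P21 levels were 233, 285, 595 and 324 in cKO mice, 399, 341, 332 and 837 in cHET mice and 316, 729, 504 and 363 in controls. The groups overlapped widely, and the difference of -0.39 from cHET (SE 0.34, adjusted p = 0.47) became -0.08 without cHET 4. At P60 the spread was narrow, at 115, 126 and 125 in cKO mice and 124, 101 and 104 in cHET mice (0.16, SE 0.11, adjusted p = 0.34). Sesn2, a stress-induced inhibitor of the growth kinase complex mTORC1, had group means of 1070 in cKO, 1102 in cHET and 1161 in control mice at P21 (-0.04 from cHET, SE 0.09, adjusted p = 0.81) and of 441, 402 and 436 at P60 (0.14, SE 0.11, adjusted p = 0.44).

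Against control, where the cKO mice also serve in the comparison with cHET, the calls were Atf3 and Nupr1 higher at both ages and Psat1 lower at P60. These are 2 of 9 members at P21, where 26.9% of all genes were called, and 3 of 8 at P60, where 25.9% were. With heterozygotes set against controls, limma called 0 of 9 members at P21 and 0 of 8 at P60, where 0.0111% and 0.0178% of all genes were called. At an unadjusted p under 0.05, 1 member (Psat1) passed at P21 and 0 at P60, and the authors' deposited test called 0 at both ages, beside 0.193% and 0.0827% of all genes. Nupr1 was 0.33 higher in heterozygotes at P21 (SE 0.26, adjusted p = 0.83) and 0.37 higher at P60 (SE 0.20, adjusted p = 0.95), values that did not pass.

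Whether the change of cKO from cHET differed between P60 and P21 was tested as an interaction over all 6 groups. The ages also differed in library kit and, for cKO and cHET mice, in the mix of sexes. Psat1 was the only one of 8 members called, with a log2 change 0.40 lower at P60 (-0.40, SE 0.09, adjusted p = 0.014), where 3.20% of 16570 genes were called. The call was lost without P60 cHET 2 (-0.36, adjusted p = 0.053). For Atf3 the interaction was -0.13 (SE 0.41, adjusted p = 0.94) and for Nupr1 0.41 (SE 0.35, adjusted p = 0.68). The intervals implied by these errors are wide, so a moderate difference between the ages was not detectable for either gene.

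The other genes of the pathway were read from 6 lists of 87 genes, which were also chosen with earlier results of these data known. Of the genes tested in cKO against cHET, 14 of 84 rose and 4 fell at P21, and 22 of 83 rose and 8 fell at P60. The share called, 21.4%, was near the 22.6% over all genes at P21, and at P60 it was 36.1% beside 25.0%. Their median log2 difference was 0.04 at P21 and 0.12 at P60, beside -0.0076 and 0.0033 over all genes. For 4 of these genes at each age the per-library values did not give the mean in the authors' tables, and none of the 4 is named here. At P60 a further 2, Gdf15 and Fgf21, had no value in the authors' tables to check against.

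**Figure D3:**
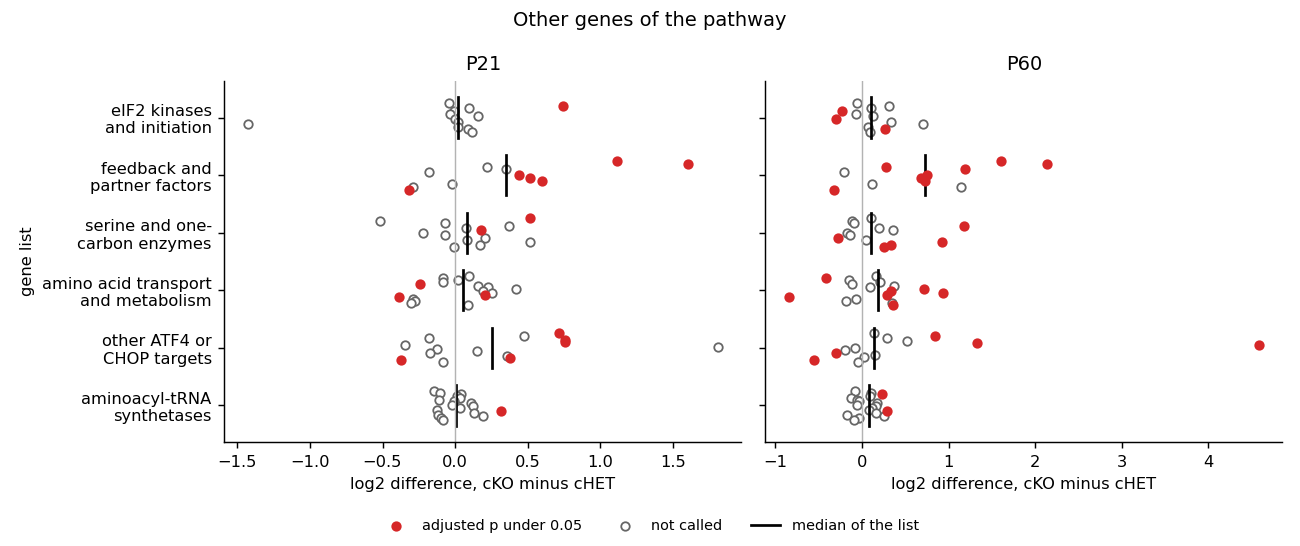
Log2 differences of cKO minus cHET for the genes of 6 pathway lists at P21 and P60; each point is 1 gene, red points have an adjusted p under 0.05 in limma, and black bars are the medians of the lists. The feedback and partner factors lie furthest to the right, with medians of 0.35 and 0.73, and the aminoacyl-tRNA synthetases lie around 0.

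Among feedback and partner factors, which include the C/EBP proteins that pair with ATF4 and the eIF2 phosphatase subunits, 5 of 11 rose and 1 fell at P21, and 7 rose and 1 fell at P60, or 54.5% and 72.7% called beside 22.6% and 25.0% over all genes. Cebpd, a C/EBP factor of acute inflammation, was at 448, 455, 362 and 377 in P21 cKO mice and 172, 124, 123 and 122 in cHET mice. It rose by 1.60 (SE 0.16, adjusted p = 3.4e-06) at P21 and 2.14 (SE 0.22, adjusted p = 3.2e-05) at P60. Cebpb, a C/EBP factor of myeloid cells among others, rose by 1.11 (SE 0.09, adjusted p = 4.7e-07) and 1.60 (SE 0.18, adjusted p = 8.6e-05). Jun, the AP-1 subunit with which ATF3 can pair, rose by 0.44 (SE 0.10, adjusted p = 0.0056) and 0.75 (SE 0.06, adjusted p = 3.1e-06). None of the 3 overlapped between cKO and cHET at either age.

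Of the eIF2 kinases and initiation factors, 1 of 12 rose and 0 fell at P21 (11 did not pass), and 1 rose and 2 fell at P60, 8.33% and 25.0% of the list beside the same 22.6% and 25.0%. Eif2ak2, the kinase that senses double-stranded RNA, was at 146, 185, 185 and 90.0 in P21 cKO mice and 91.2, 82.0, 84.0 and 90.8 in cHET mice. It rose by 0.74 (SE 0.20, adjusted p = 0.017), with knockout 4 inside the range of the heterozygotes, and the call was lost without cKO 2 (0.63, adjusted p = 0.060) or cKO 3 (0.63, adjusted p = 0.052) and under quantile normalization (0.52, adjusted p = 0.066). At P60 Eif2s2, a subunit of eIF2, rose by 0.27 (SE 0.07, adjusted p = 0.013), and Eif2b3, a subunit of its exchange factor, fell by 0.30 (SE 0.08, adjusted p = 0.019). Eif2s2 lost its call without cHET 2 (adjusted p = 0.055) or cKO 2 (0.057), and Eif2b3 without cHET 1 (0.068), cKO 1 (0.056) or cKO 2 (0.074).

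In the serine and one-carbon list 2 of 13 rose and 0 fell at P21, and 4 rose and 1 fell at P60, the one that fell being Phgdh. That is 15.4% called at P21, below the 22.6% over all genes, and 38.5% at P60 beside 25.0%. Gldc, the decarboxylase of the glycine cleavage system, was at 147, 199 and 153 in P60 cKO mice and at 77.5, 72.9 and 68.8 in cHET mice, a rise of 1.17 (SE 0.14, adjusted p = 9.4e-05). At P21 its difference was 0.37 (SE 0.14, adjusted p = 0.070), which passed without cHET 1 (0.51, adjusted p = 0.0090). Shmt1, which interconverts serine and glycine in the cytosol, rose by 0.92 (SE 0.18, adjusted p = 0.0031) at P60. At P21 Shmt1 differed by 0.52 (SE 0.20, adjusted p = 0.077), which passed without cKO 3 (0.67, adjusted p = 0.022), and it was called against control (0.77, adjusted p = 0.0094). Aldh1l1, a folate enzyme that is also on the astrocyte list, rose by 0.52 at P21 (SE 0.08, adjusted p = 3.2e-04) and differed by 0.11 at P60 (SE 0.10, adjusted p = 0.50).

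Amino acid transport and metabolism showed 1 of 16 higher and 2 lower at P21, and 5 higher and 2 lower at P60, or 18.8% called beside 22.6% over all genes and 43.8% beside 25.0%. Slc6a9, a glycine transporter, was at 4073, 4752, 4636 and 4856 in P21 cKO mice and 6043, 6008, 6003 and 5783 in cHET mice. It fell by 0.38 (SE 0.06, adjusted p = 3.4e-04) at P21 and by 0.85 (SE 0.07, adjusted p = 7.8e-06) at P60, the largest fall among the pathway genes named here. Slc1a4, a carrier of serine and other neutral amino acids, rose by 0.33 at P60 (SE 0.06, adjusted p = 0.0012). At P21 it differed by 0.19 (SE 0.07, adjusted p = 0.072), which passed without cHET 4 (0.26, adjusted p = 0.0083). Against control neither difference of Slc1a4 passed, 0.16 at P60 (SE 0.06, adjusted p = 0.060) and 0.02 at P21 (SE 0.07, adjusted p = 0.90), with the cHET means below those of controls at both ages. Bcat1, the cytosolic branched-chain aminotransferase, fell by 0.41 at P60 (SE 0.09, adjusted p = 0.0048) and differed by -0.09 at P21 (SE 0.12, adjusted p = 0.67).

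Of other reported ATF4 or CHOP targets, 4 of 14 rose and 1 fell at P21, and 3 of 13 rose and 2 fell at P60, 35.7% and 38.5% called beside 22.6% and 25.0% over all genes. Gdf15, a secreted stress hormone, was listed at 0 in all 3 P60 controls, at 0, 1.10 and 1.19 in P60 cHET mice, and at 31.1, 24.4 and 23.1 in P60 cKO mice. It reached the level required for a test at P60 only through the knockouts, so its call, 1 of the 3 that rose, was bound up with that filter and no p is given. At P21 its level was 9.22, 61.0, 76.9 and 8.29 in cKO mice against 6.65, 4.42, 5.70 and 11.8 in cHET mice. There 2 knockouts stood high and 2 lay within the heterozygotes, the difference of 1.81 did not pass (SE 0.74, adjusted p = 0.099), and it passed without cKO 4 (2.32, adjusted p = 0.038). Against control, at a mean of 4.61, the P21 difference of 2.57 was called (SE 0.74, adjusted p = 0.019), although the groups overlapped.

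Eif4ebp1, a repressor of translation, rose by 0.76 at P21 (SE 0.20, adjusted p = 0.014) and 1.32 at P60 (SE 0.15, adjusted p = 9.4e-05). The P21 call was lost without cKO 2 (0.65, adjusted p = 0.051) and under quantile normalization (0.56, adjusted p = 0.057). Vldlr, a lipoprotein receptor, fell by 0.37 (SE 0.07, adjusted p = 0.0023) and 0.56 (SE 0.09, adjusted p = 0.0011). Of 18 aminoacyl-tRNA synthetases, 1 rose at P21 and 2 at P60, with none lower, or 5.56% and 11.1% called, below the shares over all genes. The list held a mitochondrial enzyme, whereas ATF4 is known to raise cytosolic members of the family. Qars, for glutamine, rose by 0.32 (SE 0.08, adjusted p = 0.0095) and 0.29 (SE 0.09, adjusted p = 0.031). Dars, for aspartate, rose by 0.23 at P60 (SE 0.05, adjusted p = 0.0090) and differed by 0.04 at P21 (SE 0.06, adjusted p = 0.72). At P60 Qars was no longer called when cHET 1 (adjusted p = 0.079), cHET 3 (0.092), cKO 2 (0.057) or else cKO 3 (0.10) was omitted, and in the authors' deposited table (q = 0.14).

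Markers of other cells moved with the same comparison. For these marker lists and those below, the share called over all genes was 22.6% at P21 and 25.0% at P60. Of 10 microglial markers, 8 rose and 1 fell in cKO against cHET at P21, and 8 rose and 2 fell at P60. Their summed level ran from 12613 to 14700 in P21 cHET mice and from 46513 to 63488 in P21 cKO mice, 4.08-fold between the means. At P60 it ran from 6496 to 6934 and from 22075 to 29289, or 4.01-fold, and none of the 10 was at 0 in any group. Cd68, a lysosomal protein of phagocytes, rose by 3.42 (SE 0.16, adjusted p = 3.3e-09) and 4.03 (SE 0.11, adjusted p = 8.5e-09), while the homeostatic marker P2ry12 fell by 0.43 (SE 0.09, adjusted p = 0.0037) and 1.15 (SE 0.16, adjusted p = 3.8e-04). Among the cKO mice, the P21 mouse with the lowest marker sum (mouse 4) had the lowest Atf3 and the highest Nupr1, and the P60 mouse with the lowest sum (mouse 3) had the highest of both. The part of microglia in the rise of Atf3, Nupr1, Cebpb and Cebpd was not tested.

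**Figure D4:**
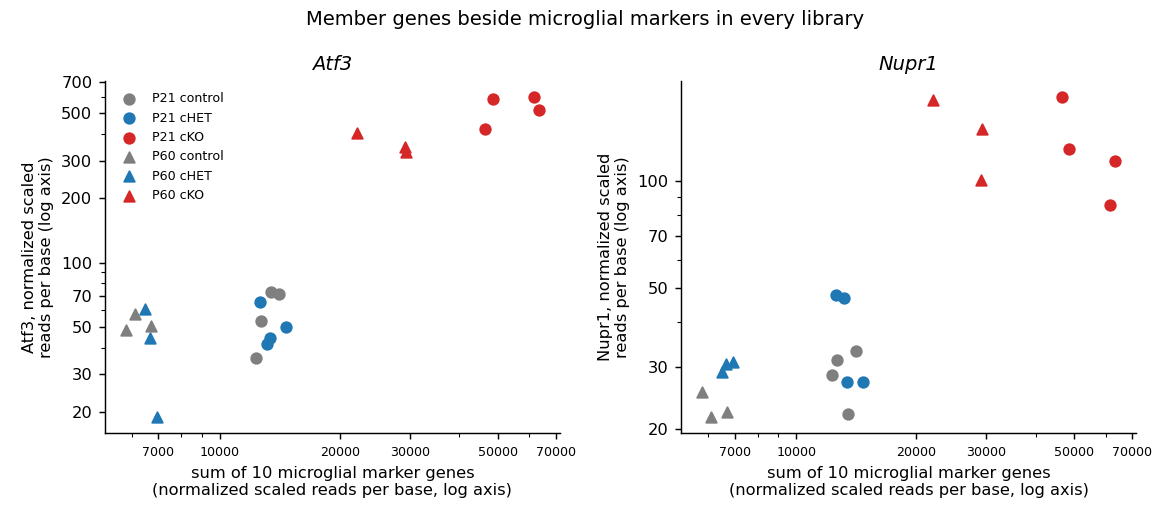
Level of Atf3 (left) and Nupr1 (right) against the summed level of 10 microglial markers in every library, all in normalized scaled reads per base on log axes; circles are P21 mice and triangles P60 mice, coloured by genotype. In both panels the cKO mice form a group of their own at upper right, with marker sums of 22075 or more, and cHET and control mice lie together.

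Astrocyte markers rose for 6 of 8 at P21 and 4 of 8 at P60, with 1 lower at each age, and their summed level was 159922 to 170758 in P21 cHET mice and 307742 to 355030 in P21 cKO mice. Mature oligodendrocyte markers fell for 6 of 9 at P21 and 8 of 9 at P60, with 1 higher at each age. Their sum ran from 2243710 to 2511430 in P21 cHET mice and from 1689210 to 1981860 in cKO mice, and at P60 from 490237 to 569688 and from 279903 to 336683, and none was at 0. In the interaction with age, 5 of the 9 markers were called with a lower log2 change at P60 and 1 with a higher one, where 3.20% of all genes were called. The part of oligodendrocytes in the fall of Psat1 was not tested. Markers of oligodendrocyte precursors rose for 3 of 4 at P21 and 4 of 4 at P60, with sums of 15339 to 18755 in cHET and 23417 to 32026 in cKO mice at P21 and of 2329 to 2596 and 7529 to 8559 at P60. Neuronal markers fell for 6 of 8 at P21 and 5 of 8 at P60, with none higher, and their sum was 279936 to 297481 in cHET and 231871 to 268872 in cKO mice at P21 and overlapped at P60 (144649 to 153524 and 132765 to 154405). None of the precursor or neuronal markers was at 0 in any group, and their part in the changes of the members was not tested. Of Schwann cell markers 1 of 4 rose at P21 and 0 at P60, with sums of 155 to 410 in cHET and 434 to 657 in cKO mice at P21 and of 71.0 to 861 and 72.6 to 134 at P60. Of peripheral leukocyte markers 1 of 4 tested rose at P21 and 1 of 2 at P60, with sums of 68.9 to 122 in cHET and 213 to 431 in cKO mice at P21 and of 23.6 to 68.6 and 129 to 204 at P60. Of 8 markers of injured neurons, cells in which ATF3 is a standard marker, 0 rose and 1 fell at P21, and 0 rose and 3 fell at P60. Their sum ran from 6632 to 7586 in P21 cHET mice and from 5652 to 6720 in cKO mice, and at P60 from 3262 to 3519 and from 2831 to 3303. None of the 8 was at 0 in any group, and the part of injured neurons in the rise of Atf3 was not tested. Immediate early genes, which respond to handling, rose for 2 of 7 at P21 and 4 of 7 at P60, with 1 lower at P60, and their sum overlapped between cKO (5670 to 7308) and cHET (4595 to 6462) at P21. At P60 the sums did not overlap (2795 to 3019 in cKO and 2037 to 2391 in cHET mice). Their part in the rise of Atf3 and Jun was not tested.

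The genes whose pattern was most like that of Atf3 over the 12 P21 libraries, of 15274 compared, were Plin2 (Pearson r = 0.993), Bcl2a1b (0.991) and Apoe (0.989). Plin2 coats lipid droplets, Bcl2a1b belongs to a family of survival proteins of blood cells and Apoe carries lipid in the nervous system. All 3 split the knockouts from the other mice, so the values of r are set by that split. For Psat1 they were Pdzd7 (0.916), Tmem125 (0.894) and Crocc (0.884), each highest on average in cHET mice like Psat1 itself. The near-identical copies of Bcl2a1b make its own level uncertain.

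**Figure D5:**
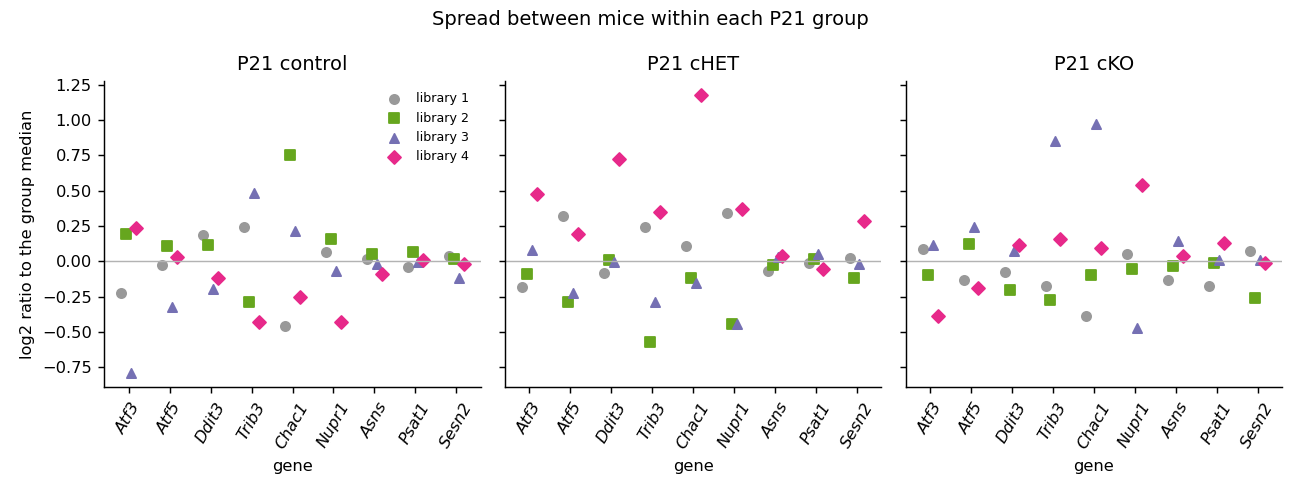
Log2 ratio of each P21 library to the median of its group for 9 member genes, with a marker for each of the 4 mice in control, cHET and cKO groups. In cHET mice the fourth library lies on top for 7 of the 9 genes, furthest for Chac1 and Ddit3, and Psat1 and Asns stay near 0 in all 3 groups.

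Some libraries were the highest or lowest of their group for most members. How often that held over all genes was not counted. Library 4 of the P21 cHET mice was the highest of its group for 7 of 9 members, the exceptions being Atf5 and Psat1. In the P60 controls library 3 was highest and library 1 lowest for 7 of 9 members each. In the P21 knockouts library 3 was highest for 5 of the 9, among them Trib3 at 18.4 and Chac1 at 595. Without P21 cHET 4 the differences of cKO from cHET were 3.52 for Atf3, 1.86 for Nupr1 and -0.22 for Psat1, all 3 still called, and the other 6 members stayed uncalled.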

How the data were processed

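RNA-seq of spinal cord from 21 mice was analysed from the deposited per-library signal, normalized scaled reads per base that the authors computed before deposit. Per the submitters' processing notes kallisto 0.43.0, sleuth 0.28.1 and GRCm38 were used, in roles not stated here. Library kits, per the labels, differed between the ages. The authors' tables give a natural log effect, its standard error (a score in the sense of a number with no fixed range, computed by the authors), and p-values with q-values for each gene, per the file headers. The effect and error were converted to log2 here. The 9 members with per-library values gave the mean of those tables within 1e-06. Atf4 was not used here beyond the tables.

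Values were taken to log2(value + 0.5). Genes at 5 or more in at least 4 (P21) or 3 (P60) libraries were tested with limma 3.58.1 (R 4.3.3, trend), 2-sided, the 3 genotypes of an age together, with Benjamini-Hochberg adjustment over all genes tested (threshold 0.05). The depth in reads is unknown. Mice were separate animals per the labels. The code was tested on simulated data. Named were the members, up to 3 called genes with the smallest p per pathway list, and the 3 genes most correlated with Atf3 and Psat1 (mean of at least 20). Members and lists were chosen with earlier results of these data known. Positions came from GENCODE M21. Slc38a2, Ero1l and Tars were not analysed here. The settings varied were the pseudocount (5, 0.05), the filter (none, or mean 50 and above), the scaling (median of ratios, quantile), only the groups compared, robust moderation, sex as a covariate at P21, the authors' test and leaving out each library.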

Additional observations from a re-analysis of the deposited data

Results flagged for a closer look

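Within the P21 groups of 4, a library was far from the other 3 in 6 of the 84 gene and group pairs examined, and in 2 of the 27 that belong to the members, where chance gives about 1 in 20. Library 4 of the P21 cHET mice accounted for 4 of the 6: it was high for Ddit3 at 1060, for Chac1 at 837 and for Eif2b3 at 543, and low for Slc6a9 at 5783. The other 2 were Cebpd in P21 cHET library 1, high at 172, and Vldlr in P21 cKO library 4, low at 1506.

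The change of cKO from cHET differed between the ages by limma's interaction test for Psat1 (-0.40, adjusted p = 0.014, lower in every cKO mouse than in every cHET mouse of its age), for Slc6a9 (-0.46, adjusted p = 0.0060) and for Gldc (0.80, adjusted p = 0.032). Slc6a9 stayed called in all 14 fits that left out 1 library, with adjusted p up to 0.025. Psat1 lost its call in 1 of the 14 (without P60 cHET 2, adjusted p = 0.053). Gldc lost its call in 6 of the 14, with adjusted p up to 0.10, namely without P21 cHET 1, P21 cKO 1, P21 cKO 2, P60 cHET 2, P60 cHET 3 or P60 cKO 2. Age and library kit cannot be told apart in these differences. The mix of sexes also differed, with cKO and cHET mice of both sexes at P21 and only males at P60.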

How the results depend on the processing

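The calls of Atf3 and Nupr1 in cKO against cHET and against control, and of Psat1 at P60, kept their direction and stayed past the threshold under every alternative run, with log2 differences from cHET of 3.27 to 3.40 and 3.10 to 3.28 for Atf3, 1.49 to 1.73 and 1.97 to 2.14 for Nupr1 and -0.61 to -0.60 for Psat1 over the settings that kept all libraries. The P21 call of Psat1 was lost with only the 2 groups fitted (adjusted p = 0.066). The number of members called in cKO against cHET at P21 was 3, and 5 under quantile normalization, where Atf5 (-0.41, adjusted p = 0.043) and Asns (-0.20, adjusted p = 0.030) joined; leaving out single mice gave 2 to 5, with 5 without P21 cKO 3. Over all genes quantile normalization changed the P21 split from 2266 higher and 1793 lower to 2032 and 2314, and the P60 split from 2258 and 1942 to 2075 and 2425; against control it went from 2620 and 2214 to 2313 and 3002 at P21 and from 2435 and 1925 to 2160 and 2620 at P60. In P21 cKO against cHET, median-of-ratios scaling also called Asns (-0.19, adjusted p = 0.045). For the age difference, 1 member was called and 0 to 1 when single mice were left out. Phgdh at P60 and Gldc between the ages also lost their calls without the filter (adjusted p = 0.053 and 0.052).

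Signs changed for values close to 0. Psat1 in P21 cKO against control became -0.0053 under median-of-ratios scaling and -0.0013 under quantile normalization, Eif2b3 at P21 -0.0015 and -0.056. Quantile normalization gave 0.052 for Atf3 between the ages and -0.014 and -0.12 for Psph at P21 and P60. Leaving out single mice gave, for cKO against cHET at P21, -0.022 to 0.25 for Ddit3, -0.092 to 0.041 for Sesn2, -0.058 to 0.067 for Eif2b3 and -0.0046 to 0.090 for Dars. At P60 it gave -0.015 to 0.34 for Atf5 and -0.028 to 0.11 for Psph. Against control it gave -0.044 to 0.057 for Psat1 at P21 and -0.082 to 0.13 for Sesn2 at P60. For cHET against control it gave -0.35 to 0.19 for Chac1 at P21, and -0.0032 to 0.18 for Atf5 and -0.094 to 0.0058 for Asns at P60. Between the ages it gave -0.60 to 0.23 for Atf3 and -0.0038 to 0.29 for Ddit3. The cause of these changes was not tested. The authors' tables hold no test of the age difference, so that alternative was not run. No paired analysis was possible because the replicate numbers follow the order of the accessions and pair no mice across groups. The values carry no read counts, so depth could not be weighed, and for Trib3 and Gdf15 the low levels limit what a test can show.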
